A study of Homo sapiens with 12 samples.

Results

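The super elongation complex genes described here are AFF1, AFF4, ELL, ELL2, ELL3, EAF1, EAF2, MLLT1 and MLLT3. These 9 genes were taken by symbol, whatever their values, from 19775 genes measured on Affymetrix arrays, and 29 of the 41091 probe sets that name a single gene belong to them. A probe set is a group of short probes that reads 1 transcript region, and each gene was represented by its probe set with the highest mean log2 intensity over all arrays. The arrays measured RNA from HEK293T, an established human embryonic kidney line expressing SV40 large T. There were 12 arrays in 4 groups of 3: a non-targeting siRNA control, and the MED26 siRNAs s18074, s18075 and s18076. All cells, controls included, received siRNA at 25 nM and were harvested 48 h later, and 300 ng of total RNA went into each labelling. The labels number the control arrays as non-targeting siRNAs 2, 3 and 4, whereas the treatment protocol names only number 2, and the titles put all 3 in 1 control group. Replicates are numbered without a statement that they came from separate cultures, so p-values measure the spread between arrays, which may be technical.

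The super elongation complex releases paused RNA polymerase II into productive elongation. AFF1 and AFF4 are its disordered scaffolds and hold P-TEFb, the kinase of CDK9 and a cyclin T. The ELL proteins are elongation factors that raise the catalytic rate of the polymerase, the EAF proteins bind ELL, and MLLT1 (ENL) and MLLT3 (AF9) carry YEATS domains that read acylated histones. MED26 is a Mediator subunit whose N-terminal domain is known to contact both TFIID and EAF-containing super elongation complexes, and several of the genes are fused to KMT2A (MLL) in leukaemia.

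Promoter sequences are shown for AFF4, EAF1 and MLLT1, the genes whose level differed from the controls in the mean of the 3 siRNAs. They are RefSeq sequences on GRCh38.p14, read 5′ to 3′ on the gene's strand, and each window runs from 250 bases before the transcript start to 50 bases after it. AFF4 lies on the minus strand at chr5:132875395-132963634, and its window is chr5:132963585-132963884. EAF1 lies on the plus strand at chr3:15427598-15442613, and its window is chr3:15427348-15427647. MLLT1 lies on the minus strand at chr19:6210381-6279975, and its window is chr19:6279926-6280225. Capitals mark each match, on either strand, to the E-box CACGTG, the ETS core CCGGAAG, the NFY box CCAAT, the GC box GGGCGG, the TATA box TATAAA and the YY1 core AAGATGG.
AFF4: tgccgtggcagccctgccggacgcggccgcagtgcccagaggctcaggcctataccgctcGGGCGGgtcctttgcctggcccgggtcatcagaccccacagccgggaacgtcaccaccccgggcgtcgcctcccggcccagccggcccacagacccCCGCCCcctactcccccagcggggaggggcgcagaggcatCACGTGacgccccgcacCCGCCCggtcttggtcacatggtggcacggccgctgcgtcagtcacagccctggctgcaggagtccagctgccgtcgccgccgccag
EAF1: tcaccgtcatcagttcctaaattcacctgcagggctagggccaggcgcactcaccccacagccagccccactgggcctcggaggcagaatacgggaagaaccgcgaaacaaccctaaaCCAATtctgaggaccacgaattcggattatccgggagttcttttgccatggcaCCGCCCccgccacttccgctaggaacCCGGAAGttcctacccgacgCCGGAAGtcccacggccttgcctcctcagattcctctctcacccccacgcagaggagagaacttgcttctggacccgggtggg
MLLT1: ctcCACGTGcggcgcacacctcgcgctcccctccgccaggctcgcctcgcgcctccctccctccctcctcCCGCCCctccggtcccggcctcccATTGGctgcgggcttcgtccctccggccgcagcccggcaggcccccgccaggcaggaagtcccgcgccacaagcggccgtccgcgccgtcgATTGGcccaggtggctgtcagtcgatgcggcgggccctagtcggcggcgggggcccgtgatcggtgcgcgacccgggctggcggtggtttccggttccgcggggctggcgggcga
The AFF4 window holds 3 GC boxes and an E-box 54 bases before the start, and its GC content is 74.7%. The EAF1 window has a GC content of 60.3%. It holds ETS cores 53 and 33 bases before the start, beside an NFY box and a GC box. The MLLT1 window holds NFY boxes 156 and 65 bases before the start, a GC box, and an E-box at the window's upstream edge, with a GC content of 77.7%.

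A RefSeq promoter was matched for 8 of the 9 genes, all but ELL2, giving 9 windows because AFF1 has a pair of them. A GC box is in 9 of the 9 windows, against 45% of 35114 RefSeq windows of the same length. An NFY box is in 6 of the 9, against 34.6% of all windows. The E-box and the ETS core are each in 2 windows, against 7.26% and 10.3%, and the YY1 core is in 1, against 5.84%. TATAAA is in 0 of the 9 windows and in 11.5% of all windows. The 9 windows have GC contents of 60.3% to 77.7%, all above the median of 58.7% over all windows. The part of this in the GC box count was not tested. These matches describe letters in the windows, and no binding was measured.

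On its representative probe set, 227538_at, MED26 itself was lower in every knockdown array than in every control array. Its log2 intensity was 9.84, 9.87 and 9.84 in the controls, 8.79, 8.69 and 8.76 with s18074, 9.41, 9.16 and 9.28 with s18075, and 8.80, 8.78 and 8.73 with s18076. The mean fell to 46.6%, 67.5% and 47.3% of control, and s18075 left more MED26 RNA than s18074 by 0.54 on the log2 scale (limma, adjusted p = 0.000256). A second MED26 probe set, 231724_at, gave differences from control of -0.27, 0.30 and -0.30 in the same order, none called. Between siRNAs it differed by 0.57 for s18075 against s18074 and by -0.60 for s18076 against s18075. Both were called (limma over all probe sets, adjusted p = 0.0239 and 0.0124). The remaining one, 1559593_a_at, gave 0.33, 0.13 and 0.18, none called. With the mean of its probe sets MED26 was not called with s18075 (-0.04, limma, adjusted p = 0.821). Replicate 1 stood apart: after group means were removed, the number 1 arrays of different groups correlated at 0.326 to 0.439. With arrays of the other numbers they correlated at -0.391 to -0.0539. Deviations from a group mean cancel out within the group, so these negative values follow on average from the positive ones and add no evidence. Of the markers of HEK293 cells, VIM ran from 12.76 to 13.31 in log2 intensity and CDH2 from 10.28 to 10.66, NEFM and NEFL were called lower in the knockdowns, and PAX2 and LHX1 lay between 6.45 and 6.89. The summed level of these 6 markers was 13.82 to 14.02 in the controls and 13.42 to 13.73 in the knockdowns, and its part in the results was not tested. The 4 blood markers measured had summed levels of 7.24 to 7.29 and 7.21 to 7.55, the 5 fibroblast markers 9.19 to 9.34 and 9.10 to 9.35, and the 5 markers of carcinoma epithelium 9.13 to 9.20 and 8.93 to 9.22. LUM and EPCAM were the members of these 3 lists called in the mean of the 3 siRNAs, both lower. In bulk RNA, fewer cells expressing a gene and less RNA per cell cannot be told apart.

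The scaffold gene AFF4 rose with each of the 3 siRNAs. AFF4, read by 225229_at, had a log2 intensity of 9.90, 9.75 and 9.86 in the controls, 10.13, 10.19 and 10.16 with s18074, 10.12, 10.16 and 10.17 with s18075, and 10.09, 10.21 and 10.18 with s18076. Every knockdown array lay above every control array, and the 3 siRNA groups overlapped one another. The log2 differences from control were 0.33 ± 0.06 (SE) with s18074, 0.32 ± 0.06 with s18075 and 0.33 ± 0.06 with s18076, which are folds of 1.25, 1.24 and 1.25 (limma, adjusted p = 0.00223, 0.00206 and 0.0015, n = 3 per group). Adjusted p-values are Benjamini-Hochberg values over all 19775 genes, and a gene was called at a value under 0.05. The 3 comparisons share the same control arrays and are not independent of one another. In the mean of the 3 siRNAs the difference was 0.32 ± 0.05, with a 95% interval of 0.22 to 0.42 (limma, adjusted p = 0.00037). Permuting the array labels over all 220 splits of 9 knockdown and 3 control arrays (exact, two-sided) gave p = 0.00455, which is as low as that test can go. Here and for EAF1 and MLLT1 below, this value largely restates that the knockdown and control arrays did not overlap. It treats the 9 knockdown arrays as alike and was not adjusted over genes.

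No difference in AFF4 was found between siRNAs (F test, adjusted p = 0.991). Between s18075 and s18074 it was -0.01 on the log2 scale, with a 95% interval of -0.13 to 0.11, and between s18076 and s18075 it was 0.01, with an interval of -0.11 to 0.13. The remaining MED26 RNA was not the same over these siRNAs, as given above. Within replicate 1 the AFF4 differences were 0.23, 0.22 and 0.19 with s18074, s18075 and s18076. In replicates 2 and 3 alone they were 0.37, 0.36 and 0.39, with adjusted p = 0.0106, 0.00902 and 0.0059 (limma). Replicates 2 and 3 thus gave the higher difference with every siRNA, and AFF4 was called without replicate 1 as well. Of all genes, 96.2% had a lower log2 difference than AFF4 in the mean of the 3 siRNAs, and 741 of the 2011 genes called higher there rose further.

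The other scaffold gene, AFF1, was called higher with s18074 alone. AFF1, read by 201924_at, had a log2 intensity of 9.74, 9.80 and 9.79 in the controls, 9.87, 10.02 and 9.97 with s18074, 9.72, 9.77 and 9.77 with s18075, and 9.73, 9.74 and 9.68 with s18076. The s18074 arrays lay above all other arrays, and the arrays of the other siRNAs overlapped the controls. The differences were 0.18 ± 0.05 with s18074 (limma, adjusted p = 0.0487), -0.02 ± 0.05 with s18075 (adjusted p = 0.827) and -0.06 ± 0.05 with s18076 (adjusted p = 0.515). The 95% intervals for the last pair were -0.14 to 0.09 and -0.18 to 0.06. AFF1 differed between siRNAs (F test, adjusted p = 0.0206): s18075 differed from s18074 by -0.20 (adjusted p = 0.0473) and s18076 by -0.24 (adjusted p = 0.0243). The call with s18074 was close to the threshold and was lost in 11 of 12 fits that leave out 1 array, all but the one without s18074 replicate 1, with adjusted p up to 0.181. In replicates 2 and 3 alone the s18074 difference was 0.20 with an adjusted p of 0.0684, and within replicate 1 it was 0.13. The F test lost its call in 3 of those 12 fits, without s18074 replicate 2, s18074 replicate 3 or s18076 replicate 3, with adjusted p up to 0.11. The AFF1 difference between s18075 and s18074 lost its call in 10 of them, all but those without control replicate 1 or s18074 replicate 1, with adjusted p up to 0.181. That between s18076 and s18074 lost it in 5, without s18074 replicate 2 or 3 or any s18076 array, with adjusted p up to 0.114. With the mean of its probe sets AFF1 differed from control by 0.09 with s18074 (limma, adjusted p = 0.446), and the F test gave an adjusted p of 0.316. On 201924_at, the s18074 call was also lost when p was adjusted over all probe sets (adjusted p = 0.0826).

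**Figure D1:**
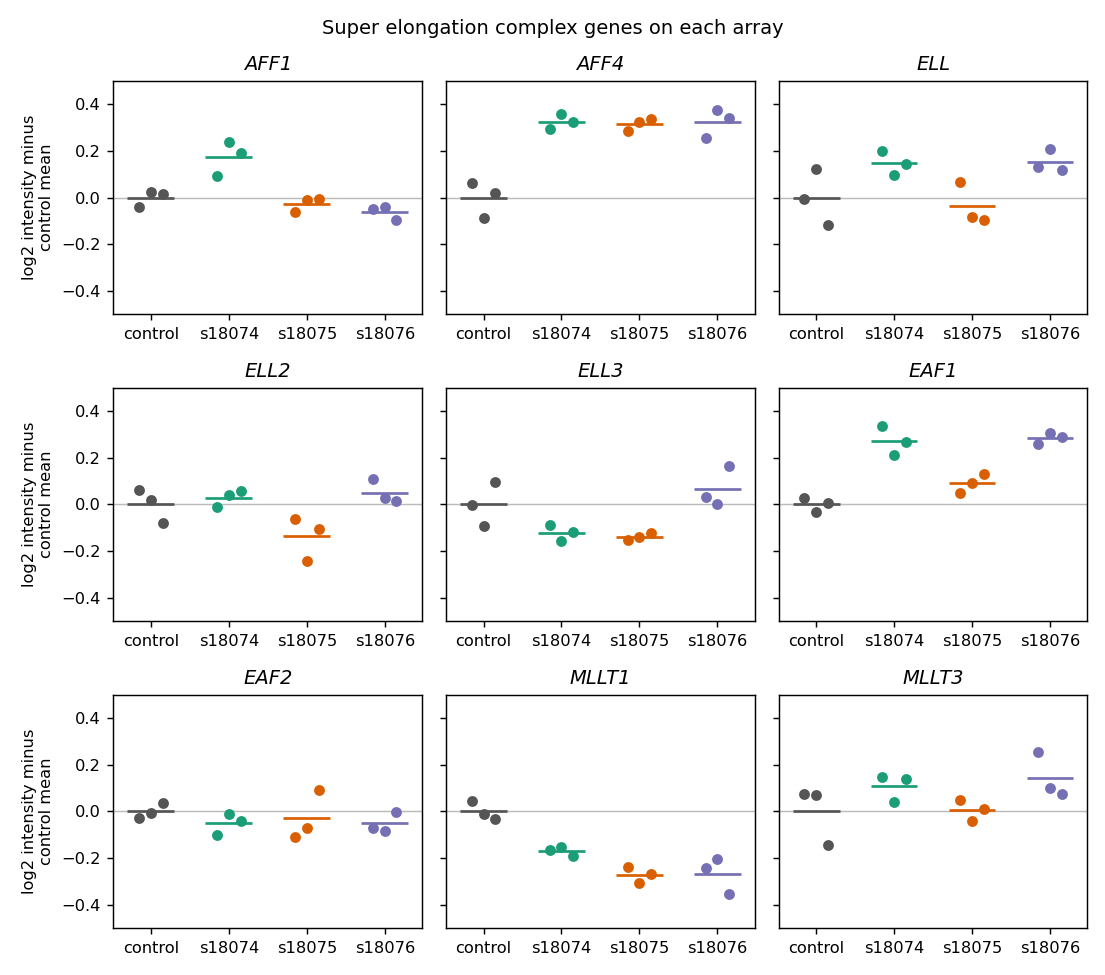
Log2 intensity of each array minus the control mean (vertical axis) for the representative probe set of the 9 genes, 1 panel per gene; points are arrays, grouped along the horizontal axis as control, s18074, s18075 and s18076, and short lines are group means. The 9 knockdown arrays lie above the 3 control arrays for AFF4 and EAF1 and below them for MLLT1.

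The ELL genes gave no call on their representative probe sets. ELL, the founding ELL elongation factor, had a log2 intensity on 204096_s_at of 7.46, 7.58 and 7.34 in the controls, 7.66, 7.56 and 7.61 with s18074, 7.53, 7.38 and 7.36 with s18075, and 7.59, 7.67 and 7.58 with s18076. Each siRNA group overlapped the controls, s18074 and s18076 through 1 array each. The differences were 0.15, -0.04 and 0.15, each ± 0.07 (SE), with adjusted p = 0.208, 0.798 and 0.171 (limma). The mean over the siRNAs was 0.09, with a 95% interval of -0.04 to 0.21.

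ELL2, the ELL paralogue known for its role in antibody-secreting cells, read 9.20, 9.15 and 9.05 in the controls on 226982_at, 9.12, 9.18 and 9.19 with s18074, 9.07, 8.89 and 9.03 with s18075, and 9.24, 9.16 and 9.15 with s18076. The s18075 arrays held the lowest values, yet 1 of them lay inside the control range. Its differences were 0.03, -0.14 and 0.05, each ± 0.06, with adjusted p = 0.825, 0.17 and 0.661 (limma), and the interval of the mean over siRNAs was -0.13 to 0.09. ELL3, the third ELL paralogue, read 7.87, 7.78 and 7.97 in the controls on 219517_at, 7.78, 7.71 and 7.75 with s18074, 7.72, 7.73 and 7.75 with s18075, and 7.90, 7.87 and 8.04 with s18076. All s18075 arrays lay under the controls, the s18074 arrays touched the control range, and the s18076 arrays overlapped it. Its differences were -0.12, -0.14 and 0.07, each ± 0.06, with adjusted p = 0.25, 0.168 and 0.542 (limma), and the F test between siRNAs gave an adjusted p of 0.0764.

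EAF1, an ELL-binding cofactor, rose with s18074 and s18076. EAF1, read by its only probe set 226952_at, had a log2 intensity of 10.31, 10.24 and 10.28 in the controls, 10.61, 10.49 and 10.55 with s18074, 10.33, 10.37 and 10.41 with s18075, and 10.54, 10.58 and 10.57 with s18076. All 9 knockdown arrays lay above the controls, and the s18075 arrays lay between the controls and the other siRNAs. The differences were 0.27 ± 0.05 with s18074 (fold 1.21, limma, adjusted p = 0.00435), 0.09 ± 0.05 with s18075 (fold 1.06, adjusted p = 0.292) and 0.28 ± 0.05 with s18076 (fold 1.22, adjusted p = 0.00218). The 95% interval with s18075 was -0.02 to 0.20. The mean over siRNAs was 0.22 ± 0.04 (limma, adjusted p = 0.00321), and the same exact permutation over arrays gave p = 0.00455.

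The siRNA with the least EAF1 was s18075, which also left the most MED26 RNA; whether the 2 go together was not tested. The EAF1 difference between s18075 and s18074 was -0.18 (limma, adjusted p = 0.0624), which was not called, and that between s18076 and s18075 was 0.19 (adjusted p = 0.0318), which was. The F test between siRNAs gave an adjusted p of 0.0403. That call was lost in 9 of 12 fits leaving out 1 array (control replicate 2, s18074 replicates 1 and 3, or any s18075 or s18076 array), with adjusted p up to 0.156, and the call between s18076 and s18075 in 6 of 12 (any s18075 or s18076 array), with adjusted p up to 0.109. Within replicate 1 the EAF1 differences were 0.31, 0.02 and 0.23, and in replicates 2 and 3 alone 0.25, 0.13 and 0.31, with adjusted p = 0.0312, 0.2 and 0.0108 (limma). The calls against control with s18074 and s18076 were also made in those 2 replicates, whereas the F test there gave an adjusted p of 0.161.

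EAF2, the paralogue of EAF1, read 8.20, 8.22 and 8.27 in the controls on 219551_at, 8.13, 8.22 and 8.19 with s18074, 8.12, 8.16 and 8.32 with s18075, and 8.16, 8.15 and 8.23 with s18076. Every siRNA group overlapped the controls. The differences were -0.05, -0.03 and -0.05, each ± 0.06, with adjusted p = 0.664, 0.811 and 0.644 (limma), and the interval of the mean over siRNAs was -0.15 to 0.06.

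Of the YEATS-domain readers, MLLT1 fell with s18075 and s18076. MLLT1, read by 224993_at, had a log2 intensity of 10.97, 10.92 and 10.90 in the controls, 10.77, 10.78 and 10.74 with s18074, 10.69, 10.62 and 10.66 with s18075, and 10.68, 10.73 and 10.58 with s18076. All 9 knockdown arrays lay under the controls. The differences were -0.17 ± 0.05 with s18074 (fold 0.889, limma, adjusted p = 0.0573), -0.27 ± 0.05 with s18075 (fold 0.828, adjusted p = 0.00418) and -0.27 ± 0.05 with s18076 (fold 0.831, adjusted p = 0.00409). The 95% interval with s18074 was -0.29 to -0.05, so that difference missed the threshold only after adjustment over all genes. The mean over siRNAs was -0.24 ± 0.04 (limma, adjusted p = 0.00227), and the exact permutation over arrays gave p = 0.00455. No difference between siRNAs was called (F test, adjusted p = 0.387): s18075 differed from s18074 by -0.10, with an interval of -0.22 to 0.02. Within replicate 1 the differences were -0.21, -0.28 and -0.29, and in replicates 2 and 3 alone -0.15, -0.27 and -0.26, with adjusted p = 0.21, 0.0382 and 0.04 (limma). With replicate 1 against replicates 2 and 3 as a block, MLLT1 was called lower with all 3 siRNAs (adjusted p = 0.0297, 0.00201 and 0.00196).

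A second MLLT1 probe set did not show this. On 214477_at, with a control mean of 4.71 ± 0.18 (SD, n = 3), the differences were 0.05, -0.05 and -0.05. When the mean of a gene's probe sets stood for it, MLLT1 differed by -0.16 with s18075 and by -0.16 with s18076, with adjusted p = 0.331 and 0.33 (limma), and the mean over siRNAs was -0.13 (adjusted p = 0.324). The MLLT1 calls therefore rest on 1 of its 2 probe sets, the brighter one.

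MLLT3 gave no call on its representative probe set and calls on others. On 204917_s_at it read 9.50, 9.50 and 9.28 in the controls, 9.57, 9.47 and 9.56 with s18074, 9.47, 9.38 and 9.43 with s18075, and 9.68, 9.52 and 9.50 with s18076. The s18076 arrays lay just above the controls and the other groups overlapped them. The differences were 0.11, 0.00 and 0.14, each ± 0.07, with adjusted p = 0.392, 0.98 and 0.219 (limma). On 204918_s_at the log2 intensity was 8.36, 8.30 and 8.14 in the controls, 7.91 to 8.05 with s18074, 8.09, 8.16 and 8.09 with s18075, and 8.06, 8.17 and 8.30 with s18076. That probe set fell by 0.28 ± 0.08 with s18074 (limma over all probe sets, adjusted p = 0.0432), and differed by -0.15 and -0.09 with the others, not called. On 1569652_at it fell by 0.55 ± 0.12 with s18075 (adjusted p = 0.0108), with 6.40, 6.49 and 6.41 in the controls and 5.87, 5.68 and 6.11 with s18075. The differences there were 0.04 with s18074 and -0.33 with s18076 (adjusted p = 0.103). The 3 MLLT3 probe sets thus gave no shared direction, and taken as their mean MLLT3 fell by 0.23 with s18075 (limma, adjusted p = 0.0251).

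**Figure D2:**
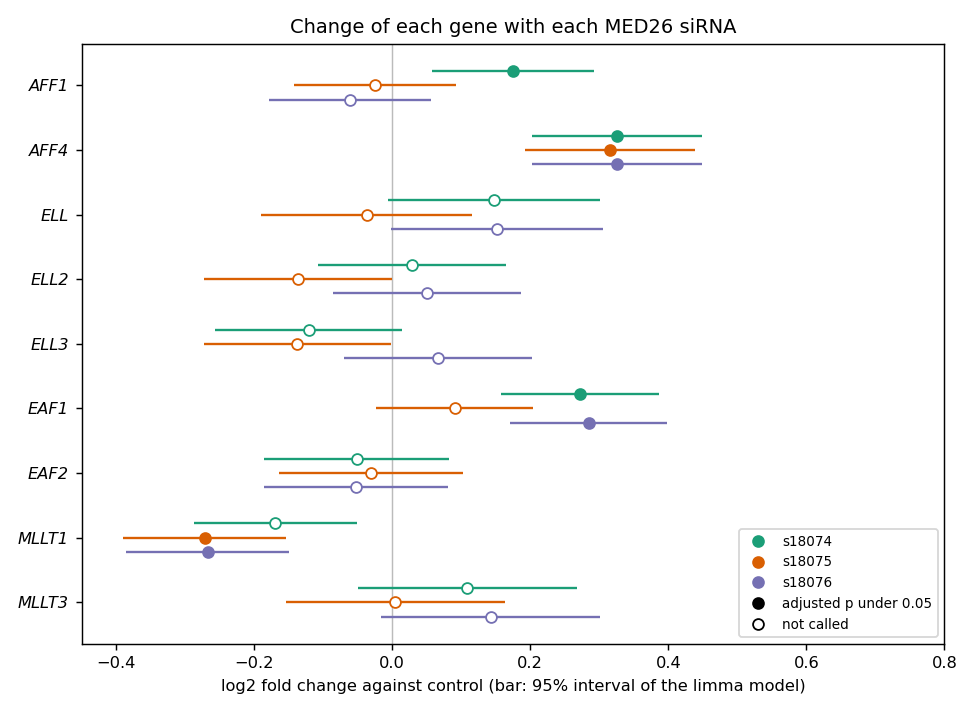
Log2 difference from control (horizontal axis) for the 9 genes with each of the 3 siRNAs; points are limma estimates, bars are 95% confidence intervals, and filled points are called at an adjusted p under 0.05. AFF4 lies at 0.33, 0.32 and 0.33, EAF1 at 0.27, 0.09 and 0.28 and MLLT1 at -0.17, -0.27 and -0.27 with s18074, s18075 and s18076.

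By count, 3 of the 9 genes were called with s18074, 3 higher (AFF1, AFF4 and EAF1) and 0 lower, against 14.2% of all genes, 6.67% higher and 7.55% lower. With s18075 there were 2, AFF4 higher and MLLT1 lower, against 16.9% of all genes (8.11% and 8.77%). With s18076 there were 3, AFF4 and EAF1 higher and MLLT1 lower, against 18.9% (10.3% and 8.62%). In the mean of the siRNAs those 3 genes were called, 2 higher and 1 lower, against 20.3% (10.2% in each direction). The members called made up 33.3%, 22.2%, 33.3% and 33.3% of the 9 genes, where each gene is 11.1% of the set. By mean log2 intensity the 9 genes lie at percentiles 50.6 to 86.3 of all genes, whereas the shares include dim genes. Genes of like brightness were not compared. AFF4 was the member called with all 3 siRNAs in 1 direction, higher, as were 3.52% of all genes, and 0 members were called lower with all 3, as were 3.13%; with the block on replicate 1, MLLT1 was. The median log2 difference of the 9 genes was 0.11, -0.03 and 0.07 with s18074, s18075 and s18076, and that of all genes lay between -0.01 and 0.01. In the mean of the siRNAs 6 of the 9 were not called.

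Arrays of a siRNA lay wholly apart from the controls for 4 of the 9 genes with s18074, 4 with s18075 and 4 with s18076, against 30.0%, 32.2% and 32.1% of all genes. All 9 knockdown arrays lay apart from the controls for AFF4 and EAF1 (higher) and MLLT1 (lower), against 13.2% of all genes, 6.78% higher and 6.43% lower. Between siRNAs, AFF1 was called for s18075 against s18074 (6.37% of all genes were), AFF1 for s18076 against s18074 (5.11%) and EAF1 for s18076 against s18075 (11.0%). The F test called these 2 genes, AFF1 and EAF1, and 12.6% of all genes.

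The order of group means was s18074, s18076, s18075 and control for AFF4, where only the step from s18075 to control was called. For EAF1 it was s18076, s18074, s18075 and control, for MLLT1 control, s18074, s18076 and s18075, and no neighbouring step was called in either. For AFF1 it was s18074, control, s18075 and s18076, with the first step called. Neighbouring groups did not differ beyond the threshold at any step for ELL, ELL2, ELL3, EAF2 and MLLT3.

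The other probe sets of AFF4 did not all move with its representative. AFF4 has 8 probe sets, and those other than the brightest had control means of at most 6.31. On 219199_at, with a control mean of 5.92 ± 0.22 (SD, n = 3), AFF4 differed by 0.28, 0.42 and 0.30 with s18074, s18075 and s18076, called with s18075 (adjusted p = 0.0174) and in the mean of the siRNAs (0.33 ± 0.08, adjusted p = 0.017). On 239439_at the control mean was 5.53 ± 0.17 and the differences 0.31, 0.41 and 0.30, called with s18075 (adjusted p = 0.041) and in the mean (0.34 ± 0.10, adjusted p = 0.0329). Both read the same direction as 225229_at. On 232865_at the differences were -0.08, -0.45 and -0.19, with an adjusted p of 0.0609 for s18075 and no call. Those of 243487_at averaged 0.25 over the siRNAs (adjusted p = 0.0933), and those of 1555436_a_at, 232864_s_at and 1555435_at averaged 0.07, 0.09 and 0.08, none called. With the mean of all its probe sets AFF4 was not called with s18076 (0.14, limma, adjusted p = 0.0654).

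For ELL3 the second probe set, 219518_s_at, differed by 0.09, -0.05 and 0.26, called with s18076 (limma over all probe sets, adjusted p = 0.0309). It also differed between s18076 and s18075 by 0.31 (adjusted p = 0.0202) and by the F test (adjusted p = 0.0441). For ELL, 204095_s_at differed by 0.23, 0.22 and 0.26, and its mean of 0.24 ± 0.08 was not called (adjusted p = 0.0734). For ELL2, 226099_at differed by 0.13, 0.23 and 0.12, with a mean of 0.16 and an adjusted p of 0.389. The probe sets of the 9 genes not named so far were dimmer, and none was called. For AFF1, 211826_s_at differed by 0.08, 0.05 and 0.02 and 215451_s_at by 0.02, 0.07 and -0.16, and for ELL, 1565254_s_at by 0.03, 0.03 and -0.14. Those of ELL2, 214446_at and 214445_at, differed by 0.23, 0.22 and 0.14 and by 0.14, 0.20 and 0.10. Those of EAF2, 1568672_at and 1568673_s_at, had control means of only 2.75 and 2.57 and differed by 0.21, 0.09 and 0.05 and by 0.07, 0.15 and 0.19. Over the 29 probe sets of the 9 genes, 3 were called with s18074 (2 higher, 1 lower), 5 with s18075 (3 and 2), 4 with s18076 (3 and 1) and 5 in the mean (4 and 1). The shares over all single-gene probe sets were 9.65%, 12.5%, 13.5% and 15.4%.

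**Figure D3:**
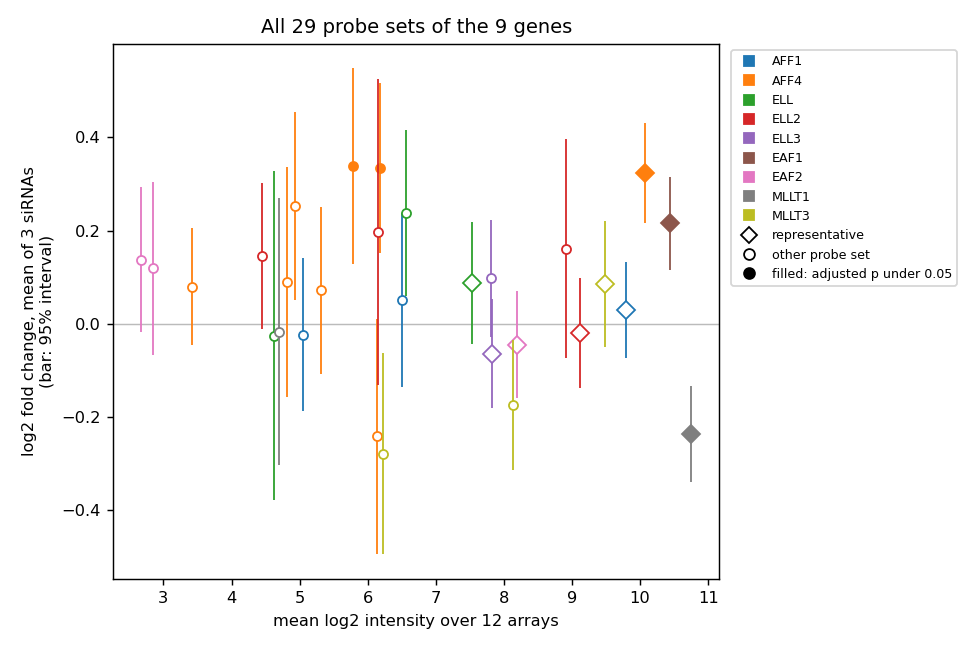
Log2 difference from control in the mean of the 3 siRNAs (vertical axis) against the mean log2 intensity over 12 arrays (horizontal axis) for all 29 probe sets of the 9 genes; diamonds are representative probe sets, circles are the others, bars are 95% confidence intervals, and filled symbols are called. The filled ones are 3 probe sets of AFF4, the 1 of EAF1 and the brighter one of MLLT1.

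The kinase that the complex carries and the 7SK particle that holds it inactive were read as a list of 7 genes, of which 2 were called higher and 0 lower in the mean of the siRNAs, beside 20.3% of all genes called (10.2% in each direction). HEXIM1, the P-TEFb inhibitor bound to 7SK RNA, had a log2 intensity of 10.07, 10.34 and 10.29 in the controls, 11.00, 11.12 and 11.16 with s18074, 11.20, 11.24 and 11.17 with s18075, and 10.95, 11.08 and 11.13 with s18076. Every knockdown array exceeded every control array. The HEXIM1 differences were 0.86, 0.97 and 0.82, each ± 0.08, with adjusted p = 2.23e-05, 5.18e-06 and 1.91e-05 (limma), larger than any of the 9 genes showed. On its probe set 202815_s_at they were 1.24, 1.06 and 0.96, whereas on the dim 238442_at they were -0.34 (adjusted p = 0.0335), -0.25 and -0.17. MEPCE, which caps 7SK RNA, differed by 0.29, 0.14 and 0.21 and rose with s18074 and s18076 (adjusted p = 0.00537 and 0.021) and in the mean (0.21, adjusted p = 0.00592). HEXIM2, the HEXIM1 paralogue, rose with s18075 by 0.33 (adjusted p = 0.00415) and differed by 0.10 and 0.01 with s18074 and s18076, and these differed between siRNAs (F test, adjusted p = 0.0149).

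The catalytic and cyclin subunits gave no call. CDK9, the P-TEFb kinase, differed by 0.21, 0.19 and 0.09 with a standard error of 0.23, and its control arrays ran from 8.23 to 8.97. CCNT1 and CCNT2, the cyclins of P-TEFb, differed by 0.06, 0.16 and 0.14 and by 0.08, 0.16 and 0.05. LARP7, which stabilises 7SK RNA, differed by -0.12, -0.14 and -0.03. The median over the 7 genes was 0.15 in the mean of the siRNAs, beside a median between -0.01 and 0.01 for all genes.

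The other elongation genes were read in 4 further lists. Of 9 measured genes of SEC-like complexes and shared partners, 0 were called higher and 1 lower in the mean of the siRNAs: MLLT6, a PHD finger protein related to MLLT10, at -0.18 (limma, adjusted p = 0.0456). By siRNA, the list had 0 genes called with s18074, 1 lower with s18075 and 0 with s18076, against 14.2%, 16.9% and 18.9% of all genes. MLLT6 was thus not called with s18074 or s18076. The list's count in the mean fell to 0 in most fits leaving out 1 array, all but those without control replicate 3 or s18076 replicate 1. It was also 0 in replicates 2 and 3 alone and with the mean of all probe sets. Of 10 measured pausing and PAF1 complex genes, 3 were called higher and 0 lower, with a median of 0.08. RTF1, a PAF1-associated factor, rose with each siRNA by 0.26, 0.27 and 0.31, and NELFB, a subunit of the pausing factor NELF, by 0.22, 0.26 and 0.32. Of 6 TFIIS and elongin genes, 0 were called higher and 1 lower: TCEA2, a TFIIS paralogue that rescues backtracked polymerase, at -0.44 (adjusted p = 0.000648), with -0.66, -0.22 and -0.45 by siRNA. TCEA1, the widely expressed TFIIS gene, named here after its values were seen, fell by 0.59 with s18076 (adjusted p = 0.0133) and differed by 0.04 and -0.02 with s18074 and s18075. Of 8 measured genes in a list of rapid-response genes and POLR2A, 2 were called higher and 3 lower. POLR2A, the largest polymerase subunit, rose by 0.94, 0.91 and 0.71, and MYC, a growth-control transcription factor, fell by 0.89, 0.71 and 0.86. Against 20.3% of all genes called, these lists had 1 of 9, 3 of 10, 1 of 6 and 5 of 8. NELFA, NELFE, HSPA1A and HSPA1B were on the lists and are not analysed here.

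**Figure D4:**
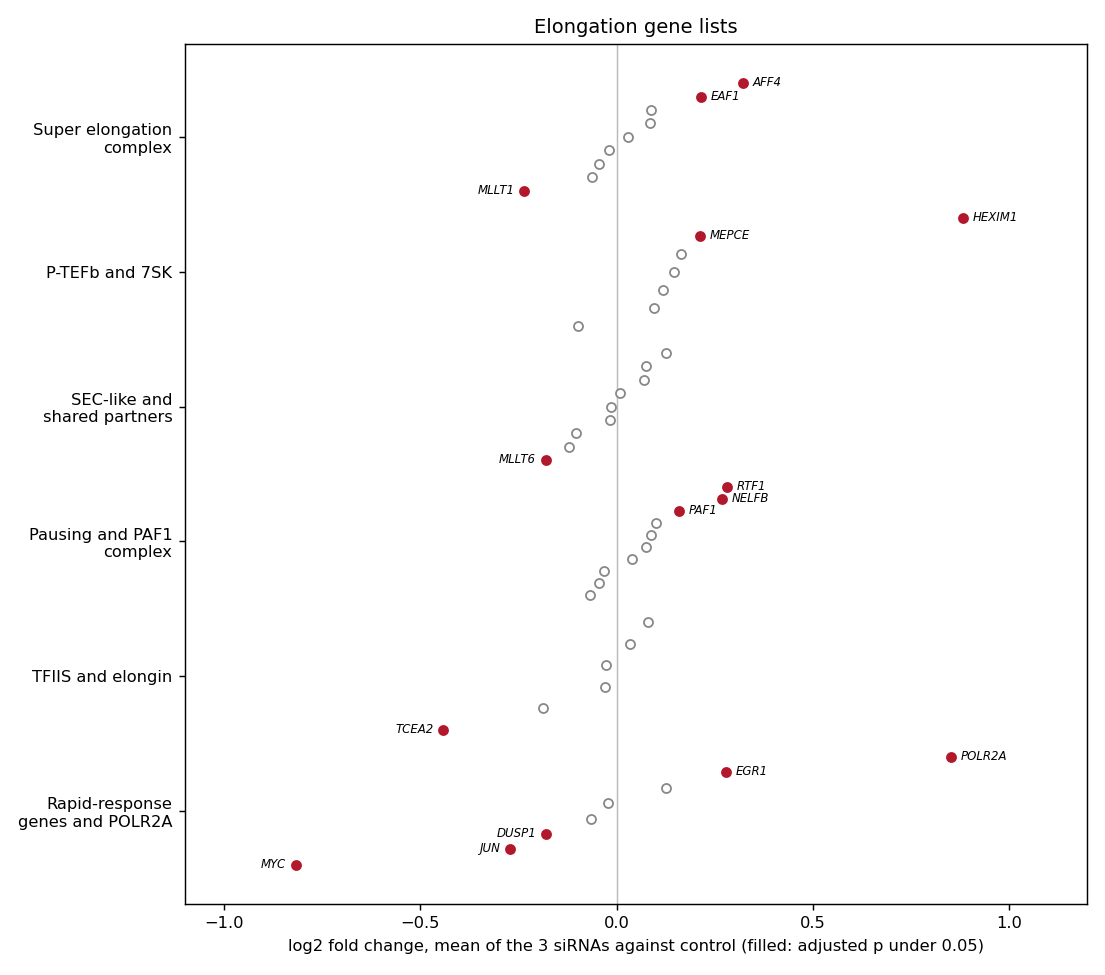
Log2 difference from control in the mean of the 3 siRNAs (horizontal axis) for each measured gene of the 9-gene set and of the 5 other lists, stacked by list; points are genes, and filled points are called and carry the gene's name. HEXIM1 and POLR2A lie furthest right, at 0.88 and 0.85, and MYC furthest left, at -0.82.

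The genes whose log2 profile over the 12 arrays was most like that of a called member were found by Pearson correlation over all genes, as a description. These arrays fall into 4 groups that share controls, so the values carry no test. For AFF4 they were RC3H2 (0.985), NEK7 (0.978) and QPCT (0.977), which differed from control by 0.53, 0.47 and 0.52, by 1.00, 1.04 and 1.06, and by 0.70, 0.77 and 0.77 with s18074, s18075 and s18076. For EAF1 they were SPOPL (0.957), MED28 (0.949) and ARID5B (0.94), with 1.16, 0.34 and 1.25, 0.64, 0.31 and 0.67, and 0.91, 0.42 and 1.03. For MLLT1 they were HNRNPA1 (0.943), DANCR (0.932) and LINC01278 (0.931), with -0.20, -0.28 and -0.33, -0.29, -0.51 and -0.57, and -0.42, -0.52 and -0.58. All these genes were picked for a like profile, so a shared order of siRNAs follows from that choice and is no support. For MLLT1 itself no difference between siRNAs was called.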

How the data were processed

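The deposited values are intensity values on a linear scale. The submitters' processing notes name RMA and affy 1.24.2; RMA corrects background, quantile-normalizes arrays and summarises probes, which hides any change in a cell's total RNA. Here log2 was taken of the deposited values, which ran from 4.36 to 33219, without a pseudocount; array medians were 72.3 to 73.8. The platform annotation names 1 gene for 41091 of 54675 probe sets, and the Entrez ID of 41037 was found in RefSeq. No dim probe set was left out. The number of arrays limits precision.

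With limma 3.58.1 (R 4.3.3), 4 group means were estimated over 19775 genes (8 residual degrees of freedom), with contrasts for each siRNA, their mean and each pair, and an F test between siRNAs; members' other probe sets came from a fit over all 41091. The scripts were tested on simulated data, where recovery was required only of changes larger than any that the 9 genes showed. Standard errors are limma's. All 9 genes and all 7 of the P-TEFb list were named whatever their values; in other lists, the members called with all 3 siRNAs or, failing that, up to 3 called in the mean. The members and lists were chosen with earlier results of these data known. A value that is not called has no direction here. Alternatives changed the scaling, log offset, filter on dim genes, probe set rule, variance model, array weights, blocks, samples and threshold. Same-numbered arrays of different groups did not all deviate together (number 2, lowest r -0.024), so numbers were not taken to pair samples. No 2 arrays were identical.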

Additional observations from a re-analysis of the deposited data

Results flagged for a closer look

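Differences between the 3 siRNAs, by the F test over their contrasts in limma with Benjamini-Hochberg adjustment over all genes, were called for MED26 and 9 genes of the 6 elongation lists. The same test called 12.6% of all genes. By list, it called 2 of 9 super elongation complex genes, 1 of 7 P-TEFb and 7SK genes and 1 of 9 SEC-like partners. It called 0 of 10 pausing and PAF1 genes, 2 of 6 TFIIS and elongin genes and 3 of 8 genes of the rapid-response list. Among the super elongation complex genes these were AFF1 (adjusted p = 0.0206), highest with s18074, and EAF1 (0.0403), lowest with s18075 of the siRNAs. Among other elongation genes they were HEXIM2 (0.0149), highest with s18075, TCEA2 (0.0104), lowest with s18074, TCEA1 (0.0195), lowest with s18076, and POLR2A (0.0298), lowest with s18076 of the siRNAs. DOT1L (0.0384), the histone H3 lysine methyltransferase that binds MLLT3 and MLLT10, differed from control by -0.13, -0.00 and 0.10 with s18074, s18075 and s18076, none called. JUN (0.0196) differed from control by -0.14, -0.49 and -0.18 in the same order, and EGR1 (0.000989) by 0.39, -0.03 and 0.47. The target, MED26 (0.000155), was least reduced with s18075.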

How the results depend on the processing

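Of 72 results on the 9 genes, 18 changed their side of the threshold or their direction in at least 1 alternative, and 1 reversed: with the mean of all probe sets, MLLT3 was called lower with s18075 (-0.23), against 0.00 on its brightest probe set. That setting also left 1 of the 9 genes called with s18076, not 3. The F test between siRNAs called 2 of the 9 genes in the reported fit, 1 after centring arrays on their median, quantile normalization, taking all probe sets as features or using replicates 2 and 3 alone, 4 with the dimmest 40% left out, 0 at an adjusted p under 0.01, and 0 to 2 when 1 array was left out. The cause was not tested. At an adjusted p under 0.01, 1440, 1896 and 2190 of all genes were called with s18074, s18075 and s18076, 2402 in the mean and 1304 by the F test; with replicate 1 against 2 and 3 as a block the F test called 3770. Leaving out 1 array gave 2 to 3, 2 to 2, 3 to 3 and 3 to 3 members called with s18074, s18075, s18076 and in the mean. With the replicate number as a block, MLLT1 was also called with s18074 (-0.17, adjusted p = 0.0381), and the F test called ELL3 (adjusted p = 0.035). Centring arrays on their median moved the share of calls that were higher with s18076 from 54.5% to 42.8%. Over alternatives, counts called in the mean were 2 to 3 for P-TEFb and 7SK, 0 to 1 for SEC-like partners, 2 to 3 for pausing and PAF1, and 3 to 6 for the rapid-response genes. Fits of each pair of groups alone give no mean or F test.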
